A study of Mus musculus with 6 samples.

Results

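The Notch receptors, ligands and target genes were examined in mouse fetal ovaries after exposure to panobinostat (PB), an inhibitor of histone deacetylases. The 10 genes were the receptors Notch1, Notch2, Notch3 and Notch4, the ligands Jag1, Jag2 and Dll1, and the target genes Hes1, Hey1 and Heyl. They were listed by name, and all 10 were found among the 35974 gene names of the count table. They were covered by 24 of its 114412 transcripts, whose counts were summed per gene. Pregnant C57BL/6J mice (C57Bl6j in the labels) received PB at 5 mg/kg between E6.5 and E15.5 (days of embryonic development), and control mice received the DMSO and water vehicle. The sample labels give this dose per day, whereas the methods of the study give it every other day by oral gavage. The 6 RNA-seq libraries were 3 control pools and 3 PB pools of E15.5 ovaries, and no genetic change is given for either group. The ovaries in a pool are given as 4 in the extraction protocol, as 6 to 8 in the series text and as at least 8 in the methods. The series text calls the control libraries exposed as well, so the groups here follow the sample titles. The libraries are described as biological replicates, but no source used here says which dams or litters went into each pool, so p-values measure the spread between these pools.

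Notch receptors are single-pass membrane proteins that bind Jagged and Delta ligands on neighbouring cells. Ligand binding opens the receptor to cleavage by ADAM proteases and then by γ-secretase, and the freed intracellular part joins RBPJ and Mastermind proteins in the nucleus to switch on repressor genes of the Hes and Hey families. Without the cleaved receptor, RBPJ recruits corepressors that include histone deacetylases. In the fetal ovary, Jag1 of germ cells and Notch2 of pregranulosa cells are known for their part in the breakdown of germ cell cysts and the assembly of follicles. In most tissues Notch4 is an endothelial gene, whereas Notch3 and Heyl are typical of pericytes and vascular smooth muscle.

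The question was whether PB exposure changed the expression of these genes. None of the 10 was called at a false discovery rate (FDR) of 0.05 and a fold change of 2 by edgeR's quasi-likelihood test over 19435 genes, of which 3 (0.0154%) were called. None reached an unadjusted p of 0.05 either, against 867 genes (4.46%) of the whole table. DESeq2 also called 0 of the 10, against 0.0539% of the genes to which it gave an adjusted p. It put 2 of them, Notch4 and Jag2, at an unadjusted p under 0.05, against 3.65% of all genes it tested. The control and PB pools overlapped for all 10 genes, whereas they did not overlap for 10.7% of the genes tested. The fitted log2 fold change was negative for 9 of the 10, against 49.3% of all genes tested. Its median was -0.14 over the 10 genes and 0.0020 over all genes. The signs depended on the scaling. With the length-normalized levels given below, the PB mean was above the control mean for Notch2, Hes1, Hey1 and Heyl, and below it for the other members. Many of the genes also varied together between pools, so the signs are not 10 independent observations.

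Sequences are shown for the places where transcript models of Notch4 and Jag2 differ, because counts moved between these models from pool to pool. The Notch4 models XM_006523798.3 and NM_010929.2 differ at the start of exon 2, where the former has 12 more bases, shown in capitals (chr17:34565289-34565300, mm10, plus strand). These bases lie in a coding segment of another Notch4 transcript in the GENCODE M21 annotation. The Jag2 model XM_006515486.2 leaves out an exon of 114 bases that the other main Jag2 models hold, again in capitals (chr12:112915605-112915718, mm10, minus strand). That exon is coding in GENCODE M21. The bases were read by position from GENCODE M21 transcripts, 5′ to 3′, with 15 bases in lower case on each side. In the XM_006523798.3 line, the bases in capitals and those of exon 2 after them came from different transcripts. The XM_006515486.2 line was made by joining the neighbours of the exon in a transcript that holds it.
Notch4 XM_006523798.3: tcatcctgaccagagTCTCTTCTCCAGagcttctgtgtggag
Notch4 NM_010929.2: tcatcctgaccagagagcttctgtgtggag
Jag2 NM_010588.2 and XM_011243998.2: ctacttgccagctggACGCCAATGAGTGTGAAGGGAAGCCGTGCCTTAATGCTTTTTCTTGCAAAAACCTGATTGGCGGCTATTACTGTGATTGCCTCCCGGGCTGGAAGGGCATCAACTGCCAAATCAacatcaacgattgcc
Jag2 XM_006515486.2: ctacttgccagctggacatcaacgattgcc

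The libraries held 97165644 to 125985399 counts each, of which 3.05 to 4.49% belonged to transcripts with no gene name. The Notch genes took 0.0373 to 0.0459% of the counts, or 38222 to 47050 counts a pool. A floor of 3 counts corresponded to 0.0238 to 0.0309 CPM (counts per 1000000, scaled by TMM factors where gene values are given), so all 10 genes were far above it. Such a floor covers counting error only. The labelled tissue was checked with fixed marker lists, and no marker gene stayed at the floor throughout. The 5 pregranulosa markers, among them Foxl2, summed to 874 to 946 CPM in control pools and 843 to 933 in PB pools. The 5 germ cell markers, among them Ddx4, summed to 555 to 743 and 472 to 864 CPM. Surface epithelium markers summed to 269, 274.3 and 206 CPM in control pools and to 295, 274.4 and 350 CPM in PB pools, so that control pool 2 and PB pool 2 were nearly tied and control pool 3 was the lowest. Their part in the results on the Notch genes was not tested.

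To compare levels between genes, counts were divided by transcript length and scaled to 1000000 in every pool (TPM). Over the 6 pools Hes1 had the highest level, 40.8 ± 2.82 TPM (SD, n = 6), above 84.3% of the genes tested. Notch2 followed at 25.4 ± 2.20 TPM and Notch3 at 14.99 ± 1.64 TPM. Hes1, Notch2 and Notch3 stood apart from each other, with no overlap of their ranges over pools. Hey1 was at 12.2 ± 1.01 TPM, and its range overlapped that of Notch3, although Notch3 was above Hey1 in 6 of 6 pools. Jag2 at 8.02 ± 1.24 TPM and Heyl at 7.44 ± 0.668 TPM could not be ordered, since Jag2 was above Heyl in 3 of 6 pools. Notch1 was at 5.58 ± 0.885 TPM. The 3 genes at the low end were Jag1 at 3.58 ± 0.516 TPM, Notch4 at 2.65 ± 0.278 TPM and Dll1 at 2.02 ± 0.303 TPM. The ranges of Jag1 and Notch4 overlapped, as did those of Notch4 and Dll1. Jag1 reached into the range of Notch4 in PB pool 1 only, at 2.73 TPM. In that pool 49.3% of the Jag1 counts were assigned to a transcript of 11065 bases, whereas the main transcript has 5493. Division by length therefore lowered the Jag1 level there. Dll1, the ligand with the lowest level, was still above 33.1% of the genes tested. With annotated transcripts only, every TPM was higher, for instance 69.1 for Hes1 and 3.43 for Dll1. All 24 transcripts of these genes are annotated, so only the scaling of each pool changed. The order of the genes within a pool could not change, and this run is no check on it.

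**Figure D1:**
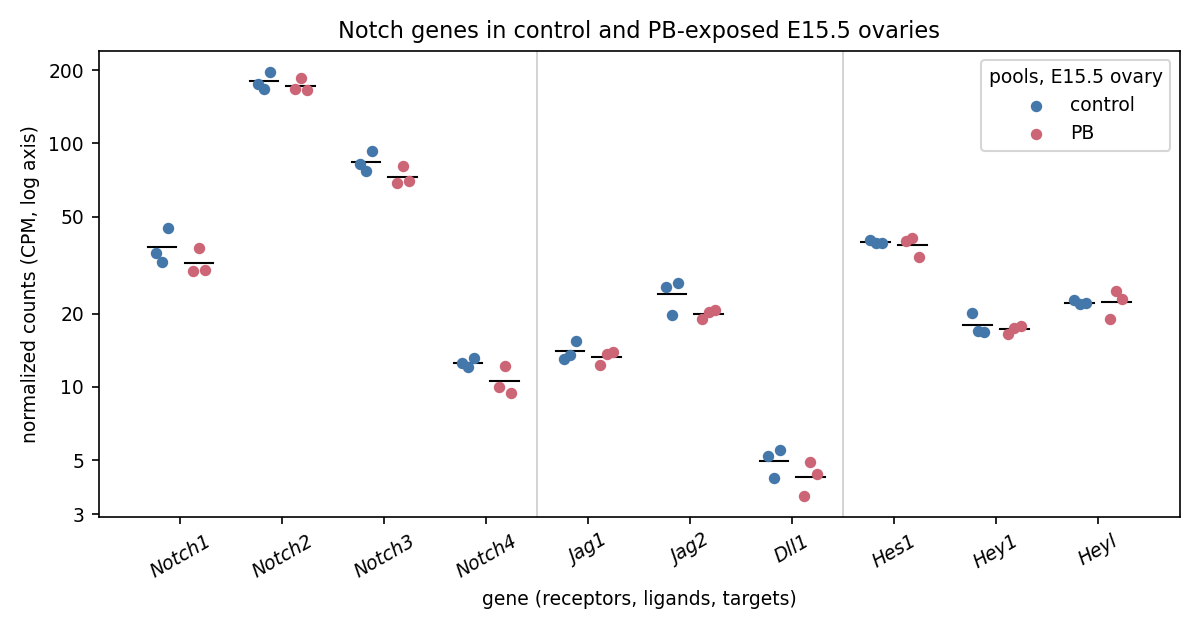
Normalized counts (CPM, log axis) of the 10 Notch genes in each of the 3 control and 3 PB pools of E15.5 ovaries, with points for pools and bars for group means. The points of the groups overlap for every gene, from Notch2 at 165 to 197 CPM down to Dll1 at 3.57 to 5.52 CPM.

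Among the receptors, the median log2 fold change was -0.21 and none of the 4 passed the test. Notch1 (chr2:26457902-26503822, minus strand), the receptor best known from T cell and endothelial development, was measured at 35.4, 32.5 and 44.7 CPM in control pools 1 to 3 and at 29.8, 37.1 and 30.3 CPM in PB pools 1 to 3. Control pool 3 was the highest of all, and PB pool 2 lay above control pools 1 and 2. The group means were 37.5 ± 6.40 and 32.4 ± 4.07 CPM (SD, n = 3 pools). The log2 fold change of Notch1 was -0.21 with a standard error (SE) of 0.14 and an edgeR FDR of 0.888.

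Notch2 (chr3:98013538-98150367, plus strand), the main receptor of pregranulosa cells, was measured at 176, 167 and 197 CPM in control pools and at 167, 185 and 165 CPM in PB pools. The PB pools lay within or just under the control range. The means were 180 ± 15.2 and 172 ± 11.2 CPM (SD, n = 3 pools), and the fitted log2 difference was -0.060 (SE 0.077, edgeR FDR 0.905). The 95% interval of this difference, -0.24 to 0.12, was the narrowest among the receptors.

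Notch3 (chr17:32120820-32166896, minus strand), the receptor of pericytes and vascular smooth muscle, was measured at 82.1, 76.8 and 93.4 CPM in control pools and at 68.7, 80.5 and 70.1 CPM in PB pools. PB pools 1 and 3 were below every control pool, and PB pool 2 was above control pool 2. The means were 84.1 ± 8.52 and 73.1 ± 6.41 CPM (SD, n = 3 pools). The log2 fold change was -0.20 with an SE of 0.095, a 95% interval of -0.43 to 0.024 and an edgeR FDR of 0.888.

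Notch4 (chr17:34564277-34588543, plus strand), the endothelial receptor, was measured at 12.5, 12.03 and 13.2 CPM in control pools and at 9.98, 12.2 and 9.42 CPM in PB pools. As for Notch3, PB pools 1 and 3 were below every control pool, and PB pool 2 was above the lowest of them. The means were 12.6 ± 0.567 and 10.5 ± 1.49 CPM (SD, n = 3 pools). For Notch4 the log2 fold change was -0.25 with an SE of 0.11, a 95% interval of -0.52 to 0.017 and an edgeR FDR of 0.888.

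The ligands had a median log2 fold change of -0.22, and none of the 3 passed the test. Jag1 (chr2:137081451-137116520, minus strand), the germ cell ligand of the fetal ovary, was measured at 13.1, 13.6 and 15.4 CPM in control pools and at 12.3, 13.7 and 13.9 CPM in PB pools. The groups were interleaved, with PB pools 2 and 3 above control pools 1 and 2. The means were 14.0 ± 1.22 and 13.3 ± 0.828 CPM (SD, n = 3 pools). For Jag1 the log2 fold change was -0.075 (SE 0.090, edgeR FDR 0.905).

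Jag2 (chr12:112907803-112929517, minus strand), the second Jagged ligand, was measured at 25.7, 19.8 and 26.7 CPM in control pools and at 18.9, 20.3 and 20.8 CPM in PB pools. Control pool 2 was level with the PB pools, and the other two control pools were above all of them. The means were 24.1 ± 3.73 and 19.99 ± 0.948 CPM (SD, n = 3 pools). The log2 fold change of Jag2 was -0.27 with an SE of 0.12, a 95% interval of -0.55 to 0.018 and an edgeR FDR of 0.888.

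Dll1 (chr17:15367354-15376048, minus strand), a Delta ligand, was measured at 5.19, 4.22 and 5.52 CPM in control pools and at 3.57, 4.89 and 4.37 CPM in PB pools. PB pool 1 was the lowest, and PB pools 2 and 3 lay inside the control range. The means were 4.98 ± 0.677 and 4.28 ± 0.666 CPM (SD, n = 3 pools). With the fewest counts of the 10 genes, 354 to 520 a pool, it had the widest 95% interval, -0.61 to 0.17 around a log2 fold change of -0.22 (edgeR FDR 0.888).

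The target genes lay nearer to no change than the receptors and ligands, with a median log2 fold change of -0.037, but that difference was not tested. Hes1 (chr16:30065357-30067796, plus strand), a repressor and the classical Notch target, was measured at 40.3, 38.8 and 38.9 CPM in control pools and at 39.7, 41.0 and 34.2 CPM in PB pools. PB pool 2 was the highest and PB pool 3 the lowest of all 6. The means were 39.3 ± 0.796 and 38.3 ± 3.602 CPM (SD, n = 3 pools), and the fitted log2 difference was -0.037 (SE 0.077, edgeR FDR 0.936).

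Hey1 (chr3:8663359-8667038, minus strand), a related repressor, was measured at 20.2, 17.03 and 16.7 CPM in control pools and at 16.5, 17.4 and 17.7 CPM in PB pools. Control pool 1 stood above the other 5, which lay close together. The means were 17.99 ± 1.91 and 17.2 ± 0.634 CPM (SD, n = 3 pools), a fitted log2 difference of -0.062 (SE 0.089, edgeR FDR 0.910).

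Heyl (chr4:123233556-123249870, plus strand), the Hey family member typical of vessel wall cells, was measured at 22.7, 21.8 and 22.1 CPM in control pools and at 19.1, 24.9 and 23.0 CPM in PB pools. The PB pools lay on both sides of the control pools and spread more widely. The means were 22.2 ± 0.450 and 22.3 ± 2.95 CPM (SD, n = 3 pools), and Heyl was the only one of the 10 with a positive log2 fold change, 0.0093 (SE 0.10, edgeR FDR 0.992).

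The intervals give a range of change for each gene taken singly, and no joint limit over the 10 genes. The 95% interval lay within a 2-fold change either way for 10 of the 10 genes, compared with 76.5% of all genes tested, and within a 1.5-fold change for 9 of the 10, compared with 61.2%. The exception at 1.5-fold was Dll1, whose lower bound was 0.655 of the control level. The highest upper bound, that of Heyl, was 1.19 times the control level.

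**Figure D2:**
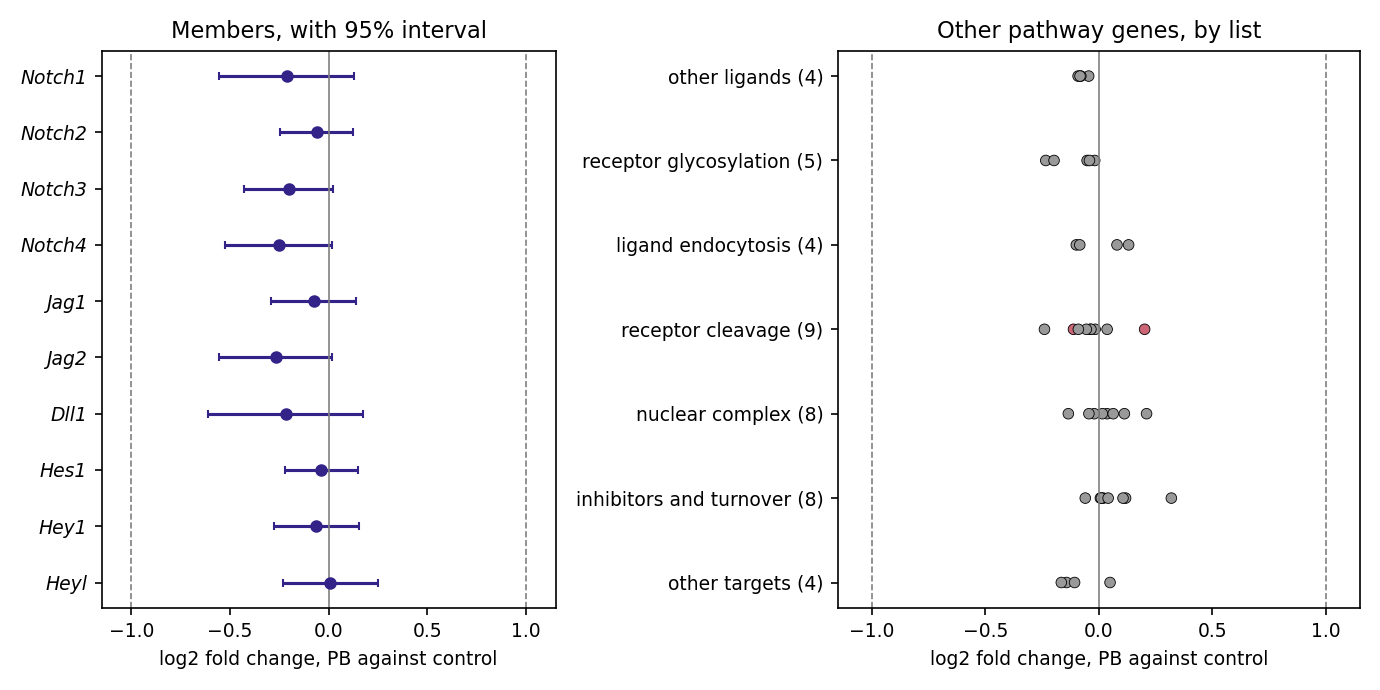
Log2 fold changes of PB against control (horizontal axes) from the gene-level fit, for the 10 Notch genes with 95% intervals and for 42 other pathway genes by list, where colour marks an unadjusted p under 0.05. Every interval of the 10 genes includes 0 and lies within -1 and 1, and Aph1a at -0.11 and Aph1b at 0.20 are the coloured genes.

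Within each group, most receptors and ligands ranked the pools alike. Control pool 3 was the highest control pool for 7 of the 7 receptors and ligands, and control pool 2 was the lowest for 6 of the 7, Jag1 being the exception. Among the PB pools, pool 2 was the highest for 5 of the 7 and pool 1 the lowest for 5 of the 7. The target genes ranked the control pools otherwise. All 3 of them were highest in control pool 1, and Hey1 was lowest in control pool 3. How often genes of the whole table ranked the pools as the receptors and ligands did was not counted. Relative to its mean over the 6 pools, the median receptor or ligand stood at 0.071, -0.074 and 0.26 in control pools on the log2 scale. In PB pools it stood at -0.20, 0.076 and -0.089. The median of all genes was within 0.0077 of its mean in every pool, but the scaling of the pools holds it there. It is therefore no measure of how far 7 genes can stray. Control pool 3 also stood apart in several marker sums. It was the highest control pool for mesonephros markers, at 31.3 CPM against 14.8 and 16.1 in control pools 1 and 2, among them Cdh16 at 14.8 against 2.72 and 3.34 CPM. It was the highest for interstitial markers (712 against 625 and 622 CPM) and for endothelial markers, and the lowest for surface epithelium and for red blood cell markers (4740 against 10905 and 14291 CPM). The part of this makeup in the values of the Notch genes was not tested. Without control pool 3 the log2 fold change was -0.074 for Notch1, 0.0027 for Notch2, -0.13 for Notch3 and -0.23 for Notch4. For the ligands it was -0.0077 for Jag1, -0.19 for Jag2 and -0.14 for Dll1. Without that pool the median log2 fold change of the 10 genes was -0.095, while without PB pool 1 it was -0.089 and without PB pool 2 it was -0.20.

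The share of each gene within its family was compared next. Notch2 made up 51.0 ± 0.656% of the summed receptor TPM in control and 53.6 ± 0.927% in PB pools (SD, n = 3 pools). Its share was 51.2, 51.6 and 50.3% in control pools and 54.4, 52.6 and 53.9% in PB pools, so every PB pool was above every control pool. For Notch3 the shares were 31.5 ± 0.152% in control and 30.04 ± 0.331% in PB pools, with every PB pool below every control pool. Shares within a family are tied, since a higher share of a gene lowers the sum of the others. Notch2 and Notch3 hold most of the receptor sum, so their shares are not separate observations. For both shares the exact two-sided permutation test gave p = 0.1, the smallest value that 3 against 3 pools can give, and 0.5 after adjustment over the 10 shares. The remaining 8 shares overlapped between groups. Notch1 made up 11.7 ± 0.833 and 11.1 ± 0.471%, and Notch4 5.69 ± 0.293 and 5.20 ± 0.320%. Among the ligands, Jag2 held the largest share in both groups, 59.3 ± 2.62 and 58.3 ± 3.49%. Jag1 held 25.97 ± 2.84 and 26.7 ± 2.84%, and Dll1 14.7 ± 0.222 and 14.95 ± 1.07%. Hes1 held 67.5 ± 1.12 and 67.5 ± 2.90% of the targets.

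**Figure D3:**
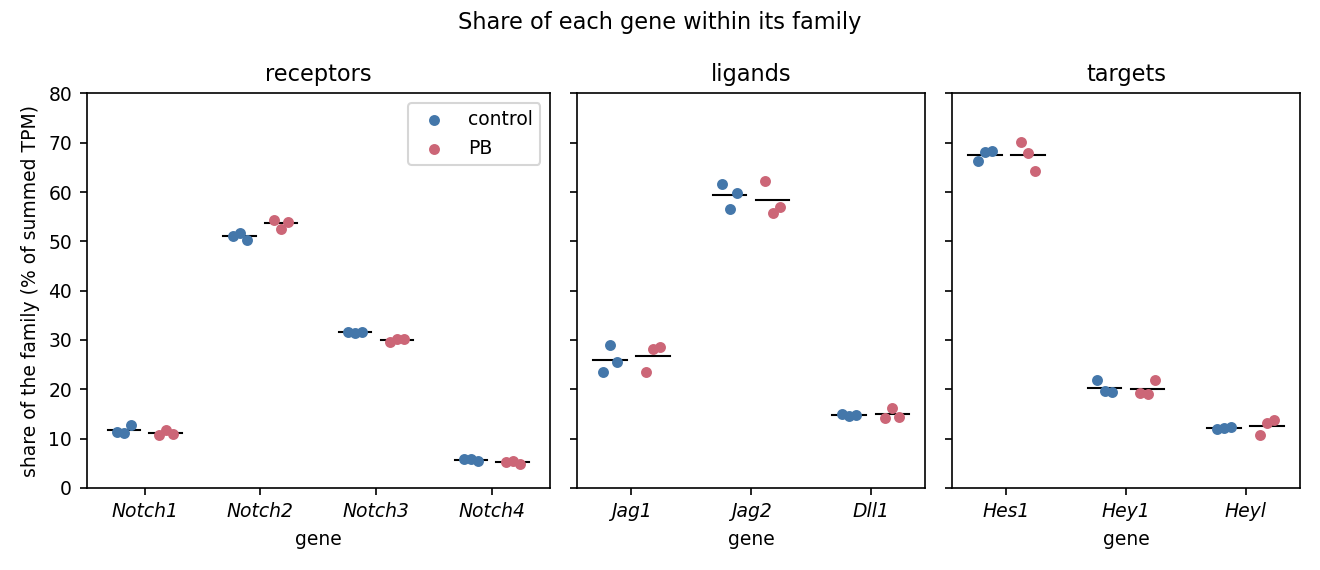
Share of each gene in the summed TPM of its family (percent), with points for pools and bars for group means, for receptors, ligands and targets. Notch2 lies between 50.3 and 51.6% in control and between 52.6 and 54.4% in PB pools, and the ligand and target shares overlap.

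A bulk library cannot tell apart fewer cells of a type from less RNA per cell, so Notch4, Notch3 and Heyl were set beside markers of the vessel cells in which they are best known. The 5 endothelial markers summed to 325, 326 and 357 CPM in control pools and to 309, 331 and 314 CPM in PB pools, and their median log2 fold change was -0.14, none of the 5 being called. PB pools 1 and 3, the lowest for Notch4, were also the lowest for the sum of these markers. The single markers did not all follow the sum, since 4 had negative and 1 a positive log2 fold change. The positive gene was Kdr, at 112.5, 118.6 and 111.8 CPM in control pools and at 119.3, 110.9 and 126.1 CPM in PB pools. Among the 5 markers, Tie1, an endothelial receptor kinase, had an edgeR unadjusted p of 0.0348 and an FDR of 0.888, with a log2 fold change of -0.24. Notch4 amounted to 3.86, 3.69 and 3.69% of the marker sum in control pools and to 3.23, 3.70 and 3.00% in PB pools. The part of endothelial content in the values of Notch4 was not tested.

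The 5 pericyte and smooth muscle markers summed to 244, 255 and 273 CPM in control pools and to 249, 290 and 262 CPM in PB pools, so their sums overlapped between the groups. Of these markers, Acta2, a smooth muscle actin, was higher in every PB pool. Its log2 fold change was 0.30, with an edgeR unadjusted p of 0.0181 and an FDR of 0.888. Pdgfrb, a receptor used as a pericyte marker, had a log2 fold change of -0.17 (SE 0.086, edgeR unadjusted p = 0.0857, FDR 0.888). Its groups overlapped. Notch3 amounted to 33.7, 30.04 and 34.2% of the marker sum in control pools and to 27.6, 27.7 and 26.8% in PB pools, with every PB pool below every control pool. This separation rested on Acta2. Over the other 4 markers, a sum chosen after seeing the data, Notch3 amounted to 51.0, 45.7 and 49.6% in control pools and to 44.1, 47.2 and 43.2% in PB pools, which overlap. Heyl amounted to 8.64 ± 0.620 and 8.34 ± 0.607% (SD, n = 3 pools) of the sum over all 5 markers, and its groups overlapped. These ratios were described only and not tested.

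**Figure D4:**
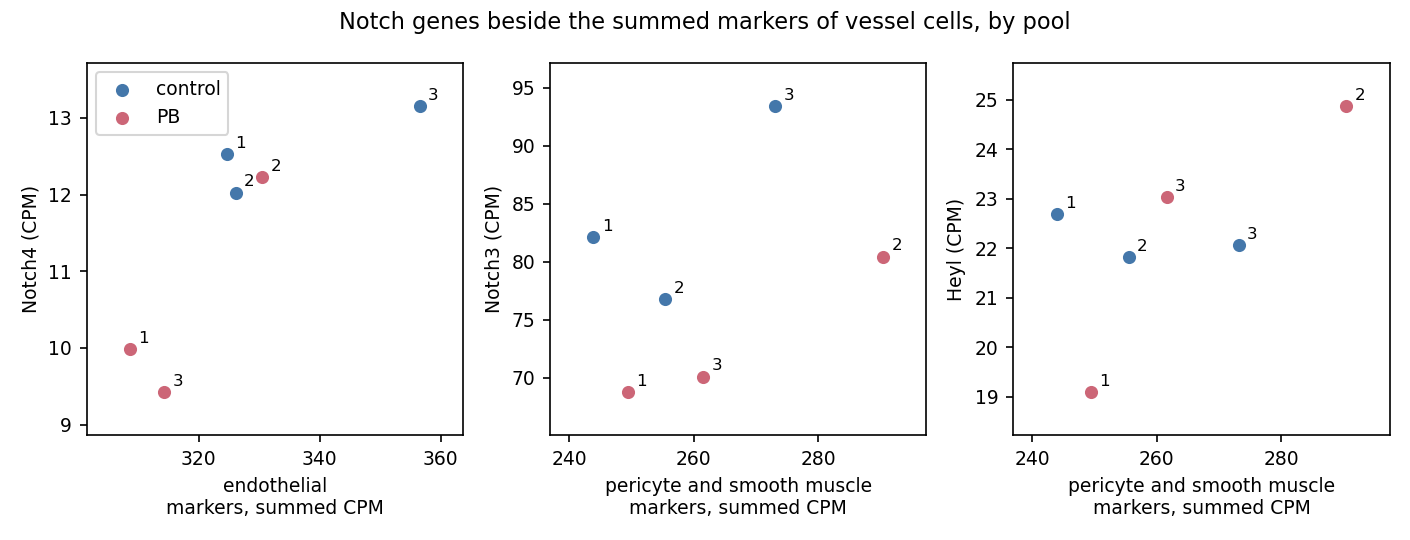
Levels of Notch4, Notch3 and Heyl (CPM, vertical axes) against the summed CPM of the endothelial or the pericyte and smooth muscle markers (horizontal axes), with 1 point per pool. Notch4 and the endothelial sum are both low in PB pools 1 and 3, and PB pool 2 has the highest pericyte sum, 290 CPM.

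At the level of single transcripts, 17 of the 24 transcripts passed the filter on low counts and none was called by edgeR, against 17 of 51227 transcripts (0.0332%) in the whole table. None had an unadjusted p under 0.05, compared with 3.56% of all transcripts, and the lowest was 0.115, for the main Notch3 transcript NM_008716.2. DESeq2 gave an adjusted p to 18 of the 24 and called none, against 1.85% of all transcripts. Its unadjusted p was under 0.05 for a single one, the minor Hey1 transcript XM_006530053.2, whose DESeq2 adjusted p was 0.578, against 7.17% of all transcripts it tested. That transcript carried 4.66% of the Hey1 counts, with 97, 128 and 89 counts in control pools and 51, 90 and 59 in PB pools. Scaled by library size it was lower in every PB pool, and 5.03% of all transcripts had PB pools entirely below the control pools.

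In each gene a single transcript carried most of the counts over the 6 pools. Notch1, Notch2 and Heyl had only 1 transcript each, NM_008714.3, NM_010928.2 and NM_013905.3. The leading transcript held 99.4% of the counts of Notch3, 96.9% of Hes1 (NM_008235.2), 95.3% of Hey1 (NM_010423.2) and 87.0% of Dll1 (NM_007865.3). It held 90.8% of Jag1 (NM_013822.5), 85.5% of Notch4 (NM_010929.2) and 77.9% of Jag2 (NM_010588.2), and in these 3 genes the share varied most between pools. The minor transcripts of these 3 genes described next were chosen after their values were seen.

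Notch4 counts went to different models in different pools. NM_010929.2 had 1229, 1397 and 1236 counts in control pools and 983, 233 and 1086 in PB pools. XM_006523798.3, the model with the 12 additional bases, had 0 counts in every pool other than PB pool 2, where it had 1014 counts, or 81.1% of the gene. The filter on low counts removed this model, so edgeR did not test it, and DESeq2 gave it no p-value. The pair together gave 1229, 1397, 1236, 983, 1247 and 1086 counts in the same order. Taken alone, NM_010929.2 was lower in every PB pool, at a log2 fold change of -0.80 (SE 0.57, edgeR unadjusted p = 0.218), whereas the summed gene overlapped between groups at -0.25.

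Jag1 showed a similar switch in PB pool 1. XM_011239312.2 had 27, 30 and 56 counts in control pools and 603, 32 and 41 in PB pools, so it took 49.3% of the gene in PB pool 1 and 1.90 to 3.87% elsewhere. This model starts 3222 bases downstream of NM_013822.5, in an exon of 6227 bases, and lacks the 306-base and 344-base exons at the start of that transcript. In PB pool 1 the main transcript had 621 counts, compared with 1255 to 1570 in the other pools. The log2 fold change of XM_011239312.2 was 2.58, the largest of the 17 Notch transcripts tested, with an SE of 1.38 and an edgeR unadjusted p of 0.120. DESeq2 gave this model no p-value.

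Jag2 counts moved between a pair of minor models in both groups. XM_011243998.2, which has 21 more bases in another exon, had 0, 566 and 0 counts in control pools and 427, 0 and 575 in PB pools. XM_006515486.2, the model without the 114-base exon shown above, had 421, 0 and 448 counts in control pools and 0, 364 and 84 in PB pools. Wherever the former was at 0 the latter was present, and the pair together took 16.7 to 27.3% of the gene in every pool. NM_010588.2 had 2102, 1697 and 2056 counts in control pools and 1451, 1699 and 1676 in PB pools. Its log2 fold change was -0.34 (SE 0.20, edgeR FDR 1.00).

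Such all-or-none counts were common in the table. A transcript with at least 10% of its gene's counts in a pool and 0 counts in another pool of the same group was found in 2 of the 7 Notch genes with several transcripts (28.6%), Notch4 and Jag2. It was found in 3245 of 9928 genes (32.7%) with several transcripts and at least as many counts as the least covered Notch gene.

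**Figure D5:**
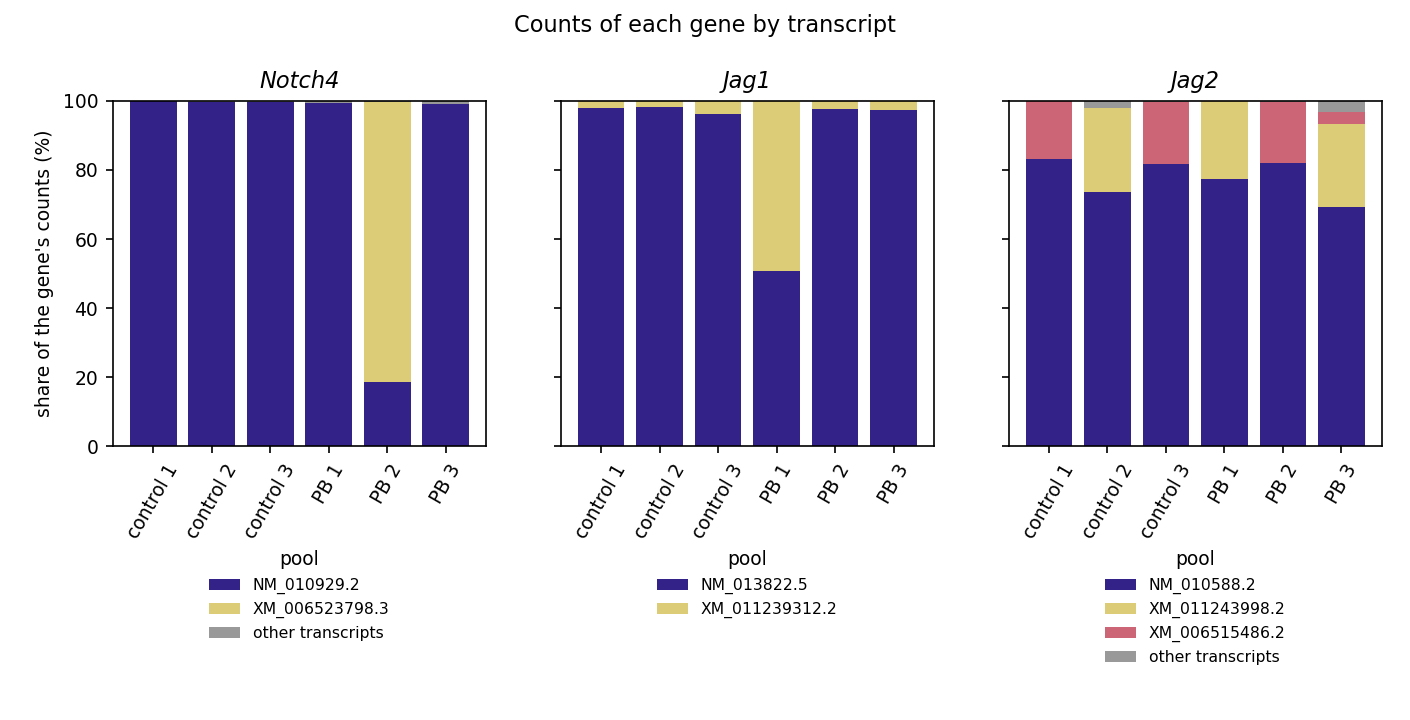
Share of the counts of Notch4, Jag1 and Jag2 (percent, vertical axes) by transcript in each of the 6 pools, as stacked bars. XM_006523798.3 takes 81.1% of Notch4 in PB pool 2 and XM_011239312.2 takes 49.3% of Jag1 in PB pool 1, whereas the minor Jag2 models alternate between pools of both groups.

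The rest of the pathway was followed with 42 genes in fixed lists. All 42 were tested and 0 were called by edgeR, with 2 at an unadjusted p under 0.05, a share close to the 4.46% of all genes. DESeq2 called 0 at its FDR. A positive log2 fold change was found for 17 and a negative one for 25 (59.5%, against 49.3% of all genes), with a median of -0.036. The pair under 0.05 belongs to the APH1 part of γ-secretase. Aph1a averaged 77.7 ± 2.66 CPM in the control group and 71.9 ± 0.409 CPM in the PB group (SD, n = 3 pools), a log2 fold change of -0.11 (edgeR FDR 0.888). Its relative Aph1b had 21.9 ± 1.86 and 25.2 ± 1.17 CPM, a log2 fold change of 0.20 (edgeR FDR 0.888). Each of the pair had groups that did not overlap, but neither passed the test. Of the 9 cleavage genes, 7 had negative log2 fold changes, the lowest being -0.24 (SE 0.12) for Psen2, a catalytic presenilin.

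In the nuclear complex, 5 of 8 genes had positive and 3 negative log2 fold changes. Rbpj, the DNA-binding partner of all Notch receptors, was at 117, 112 and 95.4 CPM in control pools and at 126, 114 and 135 CPM in PB pools. PB pools 1 and 3 were above all control pools. The log2 fold change of Rbpj was 0.21 with an SE of 0.095, an edgeR unadjusted p of 0.0640 and an FDR of 0.888. Maml2, a Mastermind coactivator, had the lowest value, -0.13, but an SE of 0.83. Of the 8 inhibitors and turnover genes, 7 had positive values, from -0.060 for Dtx3 to 0.32 (SE 0.15) for Numbl, a relative of the Notch antagonist Numb. DESeq2 gave Numbl an unadjusted p under 0.05, and edgeR did not.

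The 4 other ligands all had negative log2 fold changes, from -0.091 for Dll4, the endothelial Delta ligand, to -0.045 for Dll3. The 5 genes of receptor glycosylation were negative as well, from -0.23 (SE 0.15) for Lfng, a Fringe enzyme that tunes ligand choice, to -0.018 for Pofut1, which adds O-linked fucose. The 4 genes of ligand endocytosis were split evenly, from -0.099 for Mib2 to 0.13 for Neurl1b. Of the 4 other targets, 3 were negative, from -0.17 for Nrarp, a feedback inhibitor, to 0.050 for Hey2. No gene of these lists had an unadjusted p under 0.05 by edgeR.

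The other marker lists were read for shifts in tissue makeup, and 0 of their genes were called. The control extremes of the interstitial high, mesonephros high and red blood cell low sums were all in control pool 3. Summed interstitial markers ranged from 622 to 712 CPM in control and from 594 to 648 CPM in PB pools, mesonephros markers from 14.8 to 31.3 and from 13.9 to 20.4 CPM, and macrophage markers from 38.1 to 41.6 and from 34.7 to 40.9 CPM. Red blood cell markers ranged from 4740 to 14291 CPM in control and from 8654 to 9038 CPM in PB pools. Sertoli markers summed to 23.6 to 33.2 and 22.5 to 25.9 CPM, and Leydig markers to 52.6 to 58.8 and 28.3 to 57.3 CPM. Lrrn4 of the surface epithelium list had a log2 fold change of 0.63 (unadjusted p = 0.00270, edgeR FDR 0.888) and Dmrt1 of the Sertoli list, which germ cells also express, one of -0.52 (unadjusted p = 0.0360, edgeR FDR 0.888).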

How the data were processed

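RNA from pools of E15.5 ovaries was made into stranded paired-end libraries. Per the labels and the methods, the authors used HISAT2 2.1.0 for alignment to mm10 and StringTie 1.3.5 with RefSeq for transcript assembly. The deposited values were raw read counts per transcript, derived from StringTie's coverage, so that counts of overlapping isoforms depend on its assignment. A deposited table of the authors' own DESeq2 1.30.0 comparison was used only for transcript positions and gene names, not for its fold changes, p-values or normalized values. Here counts were summed per gene name, and transcripts without a name were left out of gene sums. Genes and transcripts were filtered (filterByExpr, minimum count 10, minimum total 15), scaled by TMM and tested in edgeR 4.0.16 (R 4.3.3) with the quasi-likelihood F-test and Benjamini-Hochberg adjustment over all features. A call needed an FDR of at most 0.05 and a fold change of at least 2. SE was the log2 fold change divided by the square root of F, and 95% intervals used its t distribution. The fit was tested on simulated data. Of 100 genes changed 2-fold there, 64 passed the FDR and 40 the fold threshold as well. Of 100 genes changed 4-fold, 91 passed both. DESeq2 1.42.0, other scaling, filters, thresholds and groupings, a replicate block and the omission of each pool were the alternatives. TPM used exon lengths of the deposited transcript models. Every member was named, with its leading transcript, any member transcript past the test or at an unadjusted p of 0.05, and pathway genes at an unadjusted p of 0.05 or at either end of their list. Members, pathway lists and marker lists were chosen with earlier results of these data known. Promoter and protein sequences were not used here.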

Additional observations from a re-analysis of the deposited data

How the results depend on the processing

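No Notch gene, member transcript or other pathway gene was called under any alternative run. The lowest edgeR FDR of a member was 0.186, for Notch4 without PB pool 2 (log2 fold change -0.37). The median log2 fold change of the 10 genes stayed between -0.20 and -0.089 when each pool was left out. Over all genes, 3 were called, compared with 11 by DESeq2, 8 with annotated transcripts only, 5 without a fold threshold and 3 to 9 when a pool was left out. Over all transcripts, 17 were called, compared with 1172 by DESeq2, 39 under a stricter filter, 51 at an FDR of 0.1 and 0 to 19 when a pool was left out. The causes were not tested. Same-numbered control and PB pools correlated at 0.093, 0.15 and -0.018 in their deviations from group means. Deviations within 3 pools are tied to each other, so these values cannot settle whether the pools were paired. The replicate block gave 0 genes and 0 transcripts called. Omission of single pools turned the sign of 4 members, with log2 fold changes of -0.12 to 0.0027 for Notch2, -0.090 to 0.037 for Hes1, -0.12 to 0.027 for Hey1 and -0.075 to 0.10 for Heyl. The other members kept their sign, with -0.32 to -0.074 for Notch1, -0.28 to -0.13 for Notch3, -0.37 to -0.18 for Notch4, -0.12 to -0.0077 for Jag1, -0.39 to -0.19 for Jag2 and -0.33 to -0.11 for Dll1. The intervals given for single genes are not the limit of detection, since a call also had to pass the adjustment over all genes and the fold threshold. Counts of single isoforms rest on the authors' assignment of shared reads.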
